A study of Mus musculus with 9 samples.

Results

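The genes described here act in blood coagulation, in fibrinolysis or belong to the related serpin family, and were 9 of the 34866 genes in the deposited tables: F13a1, F3, F7, F10, Thbd, Plau, Plaur, Serpinb2 and Serpinf1. They were found by symbol, and all 9 matched 1 gene identifier each. The set was drawn up with the expression differences between the groups known, so the levels and fold changes of these 9 genes are given as a description, without individual p-values. Counts of these genes past a p-value threshold are likewise given only as a description. Another 68 genes of the same pathways, also listed with earlier results of these data known, are given with their tests.

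Expression was measured by mRNA sequencing in primary macrophages of the mouse, immune cells that engulf microbes and dying cells, in 3 groups of 3 biological replicates. The standard group spent 7 days in standard oxygen. The acute group was cultured in standard oxygen and then given 3 hours at 1% oxygen, and the chronic group spent 7 days at 1% oxygen. All 3 groups shared one medium, alpha-MEM to which serum and the spent medium of L929 fibroblasts, a source of macrophage growth factor, had been added. The strain, sex and age of the mice, the tissue the cells came from and how many animals gave them are not given in the sources used here. Acute and chronic exposure differed in when hypoxia began during culture as well as in its length, and these cannot be told apart. Values are TPM, in which read counts are corrected for gene length and scaled to one total, so levels of different genes can be compared.

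Coagulation starts when tissue factor (F3) on a cell surface binds factor VII, and this complex activates factor X, which with its cofactor turns prothrombin into thrombin. Thrombin converts fibrinogen to fibrin, and factor XIII, whose catalytic subunit is F13a1, cross-links the fibrin strands. Thrombomodulin (Thbd) turns thrombin towards activation of protein C, an anticoagulant. Fibrinolysis runs through urokinase (Plau), which on its receptor (Plaur) converts plasminogen to plasmin. Serpins are a fold family, many of which trap proteases. Serpinb2 encodes plasminogen activator inhibitor type 2, whereas Serpinf1 encodes PEDF, a secreted serpin that does not inhibit proteases and is known for restraining blood vessel growth. Macrophages are a known source of several of these proteins outside the liver.

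The libraries fell in sets of 3 that share digits in their descriptions, called here codes X, Y and Z, 1 library of each code in every group. Code Z, which is replicate 2 of standard oxygen and replicate 3 of both hypoxia groups, stood apart in several of the 9 genes. Per library, 10724 to 11208 genes had at least 1 TPM. The 10 macrophage markers each averaged at least 1 TPM over the 9 libraries, and summed to 58800 to 77039 TPM per library. Of the 8 monocyte markers 4 averaged at least 1 TPM, mainly Hp and Ly6c2, and their sum was 580 to 2088 TPM in the code Z libraries against 117 to 323 TPM in the other 6. Within codes X, Y and Z the sum was 127, 117 and 689.8 TPM in standard oxygen, 128, 118 and 580 in acute hypoxia and 323, 274 and 2088 TPM in chronic hypoxia, so it was highest in chronic hypoxia in every code. In bulk samples, more cells of a kind and more RNA per cell cannot be told apart.

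The promoters of the genes that differed most between groups, of F10, which differed most between codes, and of Plaur follow. Plaur was the only gene of the set whose acute and standard libraries did not overlap. Sequences are from RefSeq on GRCm38.p6, on the gene's strand and 5′ to 3′. They run from 250 bases before a transcription start and leave out annotated exon bases. Of the 9 genes, 7 matched the promoter table, with 9 promoters in all. Thbd and Plau were not matched. Capitals mark matches to the motifs searched: ACGTG or GCGTG (the core of hypoxia response elements), TGAGTCA (AP-1), GTGGGCG (EGR) and GGGTGTG (KLF), on both strands.
F13a1, first start, chr13:37050245-37050494, minus strand: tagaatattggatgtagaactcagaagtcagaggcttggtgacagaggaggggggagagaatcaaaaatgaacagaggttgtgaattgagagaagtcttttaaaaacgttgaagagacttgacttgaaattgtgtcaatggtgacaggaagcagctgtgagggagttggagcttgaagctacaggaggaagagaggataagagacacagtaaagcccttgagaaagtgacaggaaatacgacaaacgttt
F13a1, second start, chr13:37049289-37049463, minus strand: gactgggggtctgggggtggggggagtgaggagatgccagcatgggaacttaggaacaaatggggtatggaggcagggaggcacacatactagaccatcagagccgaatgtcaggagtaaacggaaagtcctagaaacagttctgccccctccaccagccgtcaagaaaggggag
Serpinf1, chr11:75422702-75422873, minus strand: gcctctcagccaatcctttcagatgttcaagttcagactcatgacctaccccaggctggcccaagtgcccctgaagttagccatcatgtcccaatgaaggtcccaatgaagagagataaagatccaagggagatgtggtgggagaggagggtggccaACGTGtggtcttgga
F10, chr8:13037058-13037307, plus strand: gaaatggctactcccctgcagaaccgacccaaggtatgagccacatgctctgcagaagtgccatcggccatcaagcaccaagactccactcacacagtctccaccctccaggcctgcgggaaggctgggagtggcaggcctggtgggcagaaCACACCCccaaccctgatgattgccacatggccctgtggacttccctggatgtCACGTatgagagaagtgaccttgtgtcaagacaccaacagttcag
Plaur, chr7:24462233-24462482, plus strand: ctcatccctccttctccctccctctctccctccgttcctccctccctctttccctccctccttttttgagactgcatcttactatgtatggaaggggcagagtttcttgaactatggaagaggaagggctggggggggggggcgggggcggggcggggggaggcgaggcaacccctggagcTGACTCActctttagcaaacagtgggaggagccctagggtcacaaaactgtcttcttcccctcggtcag

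The Serpinf1 promoter held ACGTG from 93 bases upstream of its RefSeq start, chr11:75422623. The printed stretch ends 79 bases upstream of that start, since annotated exon bases are left out. The F10 promoter held the same core on the opposite strand, read as CACGT, from 45 bases upstream, and a KLF match on the opposite strand from 98 bases upstream. Plaur held an AP-1 match on the opposite strand from 69 bases upstream. Both F13a1 promoters held no match to any of the 5 motifs, nor did those of F7 and Serpinb2. The F3 promoter, of a gene near 0 TPM in all groups, held 4 matches, to AP-1 at 135, EGR at 91 and 57 and KLF at 78 bases upstream. Of 32851 promoters of 300 bases in the table, 19.6% held ACGTG, 43.8% held ACGTG or GCGTG, 5.20% held the AP-1, 7.97% the EGR and 7.95% the KLF motif. Among the 9 promoters the counts were 2 for ACGTG, 0 for GCGTG, 2 for AP-1, 1 for EGR and 2 for KLF. A match describes letters in these windows and is no evidence of binding.

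F13a1 was the gene of the set that differed most between groups in absolute TPM. It stands at chr13:36867178-37050244 on the minus strand in GRCm38. In standard oxygen it was 95.7, 38.3 and 101 TPM in replicates 1 to 3, in acute hypoxia 128, 128 and 41.7 TPM, and in chronic hypoxia 1410.5, 1548 and 691 TPM. Every chronic library lay above every other library, and within each group the code Z library was the lowest. Among all 34866 genes F13a1 ranked 1420 by mean level in standard oxygen, 1162 in acute and 119 in chronic hypoxia. Within codes, the chronic library was 14.7 times the standard one for X, 15.4 for Y and 18.1 for Z. The code Z level was thus lower in each group, while its ratio between groups was as large as in X and Y. The log2 fold change of chronic against standard was 3.98 ± 0.457 (SE, limma, 3 libraries a group), and with the code as a block its SE was 0.0795. For chronic against acute it was 3.69 ± 0.510 (SE). Acute against standard gave 0.29 ± 0.547 (SE), with ratios within codes of 1.34, 1.27 and 1.09, and the groups overlapped.

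F13a1 is also abundant in platelets and their precursors. The 8 megakaryocyte and platelet markers summed to 3.79 to 5.81 TPM in standard, 2.60 to 6.94 in acute and 2.87 to 29.0 in chronic hypoxia, where Pf4 was the most abundant of them. Pf4 was 2.53, 2.24 and 0.536 TPM in codes X, Y and Z in standard oxygen and 25.4, 27.3 and 1.65 TPM in chronic hypoxia. Pf4 and the summed monocyte markers were thus higher in chronic than in standard libraries in each code, as F13a1 was. Between codes, the monocyte sum and F13a1 ran opposite ways: in every group code Z had the highest sum and the lowest F13a1. The sum of the 8 platelet markers was higher in codes X (3.79 to 26.6 TPM) and Y (3.94 to 29.0) but lower in Z (5.81 to 2.87). Gp9 and Gp6 went down, from 0.317 to 3.41 and 0.172 to 1.09 TPM in standard to 0 and 0.024 to 0.124 in chronic libraries. The part of platelet and monocyte markers in the F13a1 levels was not tested. Of all TPM assigned to the 9 genes, F13a1 made up 10.4% to 32.9% in standard oxygen, 7.07% to 38.6% in acute hypoxia and 58.4% to 77.8% in chronic hypoxia.

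Serpinf1 went from near 1 TPM to between 16.9 and 31.7 TPM. It lies at chr11:75409769-75422701 on the minus strand, with Serpinf2, the gene of the plasmin inhibitor alpha-2-antiplasmin, 9030 bases away. Its levels were 1.29, 0.33 and 1.46 TPM in standard oxygen, 0.60, 0.33 and 0.30 in acute hypoxia, and 31.7, 22.5 and 16.9 TPM in chronic hypoxia. The chronic libraries lay above the other 6, and all 3 acute libraries were at or below 0.60 TPM. Chronic against standard gave a log2 fold change of 3.61 ± 0.317 (SE). Chronic against acute, where Serpinf1 passed the filter of a mean of 1 TPM only through the chronic group, gave 4.09 ± 0.243 (SE). Because 1 is added to each TPM, these are smaller than the ratios of TPM. Those were 24.5, 15.4 and 51.4 within codes X, Y and Z against standard and 52.6, 67.8 and 56.8 against acute. Their denominators were 0.30 to 1.46 TPM, so with the depth unknown the size of these ratios is uncertain. Acute against standard was not tested, since the mean was under 1 TPM. There the ratio was 0.467, 0.227 and 0.904, below 1 in 3 of 3 pairs, but between values of 0.30 to 1.46 TPM. With the depth unknown no counting error can be given for these. Stromal cells are a known source of PEDF. The 10 fibroblast and stromal markers summed to at most 2.41 TPM in any library, Thy1 alone averaged at least 1 TPM, Col1a1 did not exceed 0.06 TPM and Postn was at 0 in all libraries. The summed monocyte markers were also higher in chronic hypoxia in each code. In every group, though, code Z had the highest sum and the lowest Serpinf1. The part of these markers in the Serpinf1 levels was not tested.

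**Figure D1:**
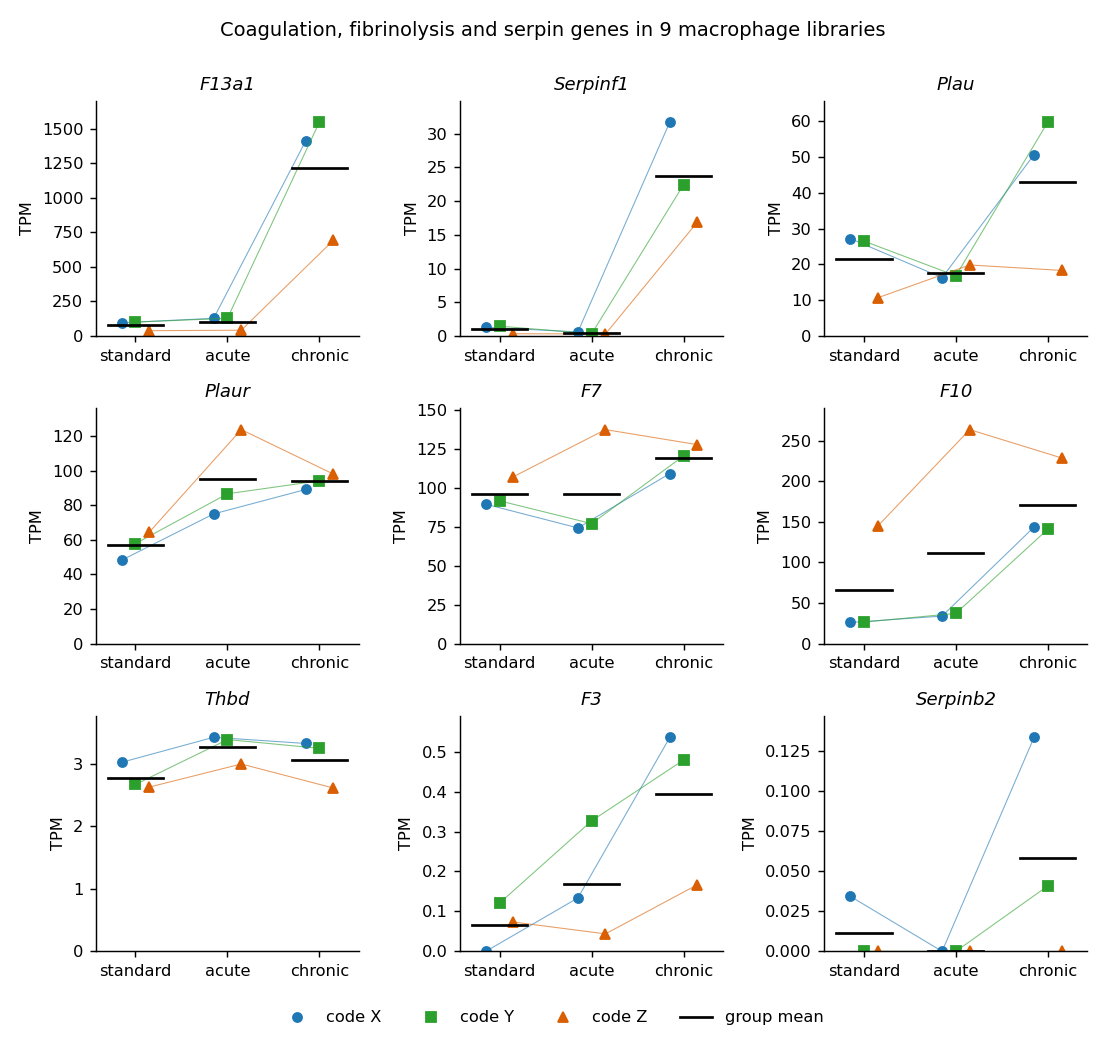
TPM (vertical axis, linear, from 0) of the 9 genes by group, 1 point a library, with marker and colour for the sample code, thin lines joining libraries of a code and black bars for group means. F13a1 and Serpinf1 are separated from both other groups in chronic hypoxia, Plaur is higher in both hypoxia groups than in standard oxygen, and F10 is highest in the code Z library of every group.

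The initiating factors differed widely in level. F3, tissue factor (chr3:121723537-121735048, plus strand), was 0, 0.07 and 0.12 TPM in standard oxygen, 0.13, 0.33 and 0.04 in acute hypoxia and 0.54, 0.48 and 0.17 TPM in chronic hypoxia. The chronic libraries lay above all standard ones, and were higher in 3 of 3 codes than the acute ones, but all 9 were under 1 TPM. It was therefore not tested in any comparison, and with the depth unknown no counting error can be given for such values.

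F7 and F10 are neighbours on chromosome 8, read in the same direction, with F7 at chr8:13026034-13035809, F10 at chr8:13037308-13056676, 1498 bases between them and Proz, another clotting-related gene, 4237 bases further on. F7 was 89.5, 107 and 91.7 TPM in standard oxygen, 74.3, 77.1 and 137 in acute hypoxia and 109, 121 and 128 TPM in chronic hypoxia. The chronic libraries lay above the standard ones by a narrow margin, and the acute group spanned both. The log2 fold change was 0.31 ± 0.114 (SE) for chronic against standard, 0.36 ± 0.241 for chronic against acute and -0.05 ± 0.243 for acute against standard.

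F10 was 26.1, 145 and 26.5 TPM in standard oxygen, 34.0, 37.3 and 264 in acute hypoxia and 144, 141 and 229 TPM in chronic hypoxia. In codes X and Y the chronic libraries were 5.51 and 5.33 times the standard ones, and the acute libraries 1.30 and 1.41 times. In code Z, where F10 was already at 145 TPM in standard oxygen, the ratios were 1.58 for chronic and 1.82 for acute, and the chronic library was lower than the acute one. The groups overlapped in every comparison. Chronic against standard gave 1.81 ± 0.657 (SE), and 2.39 ± 0.0694 without the 3 code Z libraries. Chronic against acute gave 1.25 ± 0.767, and 1.97 ± 0.0816 without code Z.

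The monocyte markers were highest in the same 3 libraries in which F10 was highest (689.8, 580 and 2088 TPM in the standard, acute and chronic code Z libraries), and their part in the F10 levels was not tested. The liver is the main source of circulating factors VII and X. Of the 8 hepatocyte markers 5 were at 0 in all libraries, among them Alb and Ttr, and their sum did not exceed 0.720 TPM.

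Within a library, the log2 ratio of F10 to F7 was -1.78 and -1.79 in codes X and Y in standard oxygen, -1.13 and -1.05 in acute hypoxia and 0.40 and 0.23 in chronic hypoxia. In code Z it was 0.43, 0.94 and 0.84. F7 thus exceeded F10 in the X and Y libraries of standard oxygen and acute hypoxia, and F10 exceeded F7 in the other 5 libraries. The ratio does not depend on the scaling of a library. The 2 genes share no 75-base stretch with each other, and of F10 0.206% of such stretches occurred in another gene.

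Thrombomodulin, encoded by Thbd (chr2:148404466-148408188, minus strand), was low in all groups. It was 3.03, 2.63 and 2.67 TPM in standard oxygen, 3.43, 3.39 and 3.00 in acute hypoxia and 3.33, 3.25 and 2.62 TPM in chronic hypoxia. All groups overlapped. Within codes X, Y and Z the acute library was 1.13, 1.27 and 1.14 times the standard one, higher in 3 of 3 pairs, and the chronic library 1.0996, 1.22 and 0.995 times. The log2 fold change was 0.18 ± 0.149 (SE) for acute against standard, with a 95% interval of -0.18 to 0.53, 0.10 ± 0.166 (-0.30 to 0.50) for chronic against standard and -0.08 ± 0.160 (-0.46 to 0.31) for chronic against acute. The chronic-to-standard value became -0.03 after median-of-ratios rescaling of the libraries. Of the 8 endothelial markers Emcn and Cldn5 were at 0 in all libraries, and Pecam1, which myeloid cells also carry, held most of their sum.

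The urokinase pair differed in pattern over the groups in codes X and Y. Plaur (chr7:24462484-24475968, plus strand), the receptor, was 48.3, 64.4 and 57.8 TPM in standard oxygen, 75.0, 86.6 and 124 in acute hypoxia and 89.1, 94.1 and 98.1 TPM in chronic hypoxia. All libraries of both hypoxia groups lay above all standard ones, and the hypoxia groups overlapped. Within codes the acute library was 1.55, 1.498 and 1.92 times the standard one, and the chronic library 1.85, 1.63 and 1.52 times. The log2 fold change was 0.71 ± 0.205 (SE) for acute against standard, 0.72 ± 0.127 for chronic against standard and 0.01 ± 0.187 for chronic against acute, with a 95% interval of -0.44 to 0.46 for the last, whose sign turned after rescaling (-0.14). The first 2 comparisons share the standard libraries. Plaur was the only one of the 9 genes whose acute and standard libraries did not overlap.

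Plau (chr14:20836660-20843385, plus strand), urokinase itself, was 27.2, 10.7 and 26.5 TPM in standard oxygen, 16.3, 16.8 and 19.8 in acute hypoxia and 50.7, 59.8 and 18.3 TPM in chronic hypoxia. In codes X and Y it was lower in acute than in standard oxygen, at 0.598 and 0.634 times, and higher in chronic, at 1.86 and 2.25 times. In code Z the acute library was 1.86 times the standard one and the chronic library 1.72 times. The groups overlapped in every comparison. Chronic against standard gave a log2 fold change of 0.91 ± 0.526 (SE), with an SE of 0.105 when the code was a block. Acute against standard gave -0.17 ± 0.345, and -0.67 ± 0.0787 without the code Z libraries. Chronic against acute gave 1.08 ± 0.417, and 1.68 ± 0.109 without code Z.

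The log2 ratio of Plau to Plaur within a library was -0.83 and -1.12 in codes X and Y in standard oxygen, -2.20 and -2.37 in acute hypoxia and -0.81 and -0.65 in chronic hypoxia. In code Z it was -2.59, -2.64 and -2.42. The receptor transcript thus exceeded that of the enzyme in all 9 libraries, by most in acute hypoxia in codes X and Y and by about as much in every group in code Z.

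**Figure D2:**
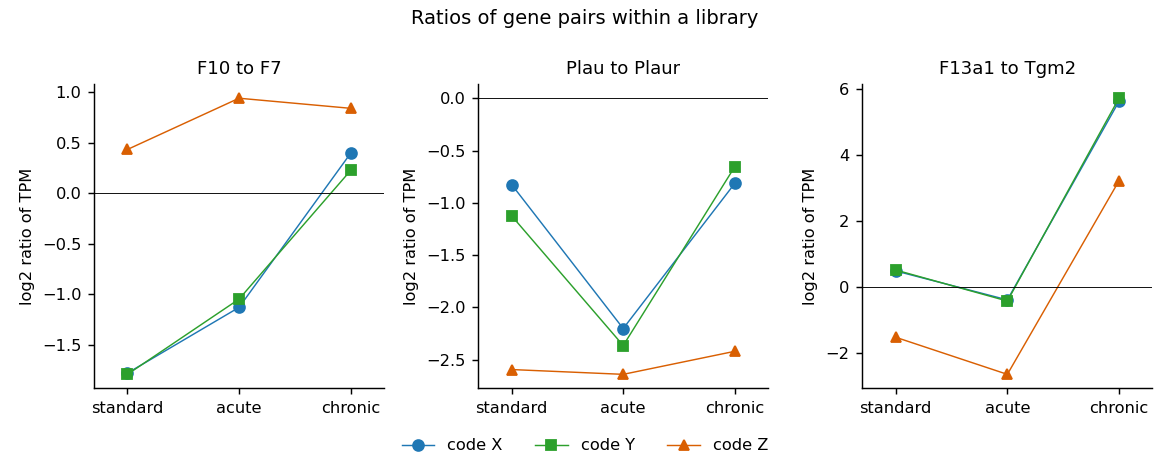
Log2 ratios of TPM within each library for F10 to F7, Plau to Plaur and F13a1 to Tgm2 (vertical axes) by group, 1 line a sample code. Codes X and Y run together and code Z apart: F10 to F7 lies between -1.79 and 0.40 in codes X and Y and between 0.43 and 0.94 in code Z.

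Serpinb2 (chr1:107511423-107535478, plus strand), the urokinase inhibitor PAI-2, was at or near 0 in these macrophages. It was 0.03, 0 and 0 TPM in standard oxygen, 0 in all acute libraries and 0.13, 0.04 and 0 TPM in chronic hypoxia. Its annotation overlaps that of Serpinb10, and Serpinb10 was at 0 TPM outside chronic hypoxia and at 0.14, 0.07 and 0 TPM within it. Values this low give no comparison.

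The order of the 9 genes changed between groups. In standard oxygen the means were 96.1 ± 9.66 TPM for F7, 78.2 ± 34.6 for F13a1, 65.8 ± 68.4 for F10, 56.8 ± 8.13 for Plaur, 21.5 ± 9.37 for Plau, 2.78 ± 0.218 for Thbd and 1.03 ± 0.609 for Serpinf1 (SD, n = 3). The first 3 overlapped with each other and could not be ordered, F13a1 and F10 overlapped with Plaur, and F10 also with Plau. In chronic hypoxia the means were 1217 ± 460 TPM for F13a1, 171 ± 49.9 for F10, 119 ± 9.35 for F7, 93.8 ± 4.49 for Plaur, 42.9 ± 21.8 for Plau, 23.7 ± 7.49 for Serpinf1 and 3.07 ± 0.391 for Thbd (SD, n = 3). There F13a1 stood clear of the next gene, F10 clear of F7 and F7 clear of Plaur, while Plau and Serpinf1 overlapped.

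A gene counted as called when limma gave it a p under 0.05 after Benjamini-Hochberg adjustment over all genes tested. Of the 9 genes 6 passed the filter of a mean of 1 TPM in acute against standard, and 7 in the other comparisons, and a gene that passed only through its high group had to differ. This held for Serpinf1 in chronic against acute, where its acute mean was 0.41 TPM. In acute against standard 0 of 6 were called, beside 0.0273% of all genes (0.71% with the code block, again 0 of the 6). Without a block 1 of the 6 had an unadjusted p under 0.05, beside 7.14% of all genes. With the code block 3 of the 6 did, beside 1555 of the 10987 genes tested. In chronic against standard F13a1, Serpinf1 and Plaur were called higher, 3 of 7, beside 2.69% of all genes, 2.1% of them called higher. With the code as a block F7, F10 and Plau were added, 6 of 7, beside 18.4%, 15.1% called higher. With the block and rescaling together 4 of 7 were called, without F7 and F10, beside 11.5%. In chronic against acute F13a1 and Serpinf1 were called higher, 2 of 7, beside 0.695% of all genes without a block (0.55% called higher) and 15.5% with it (12.1% called higher), where the same 2 were called. As the set was chosen on these comparisons, its counts say nothing about how it stands against other genes.

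Calls without a block depended on which libraries entered, over all genes as over these 9. Without the second chronic replicate 0 of the 9 genes were called in either comparison, and over all genes 1 was in chronic against standard and 1 in chronic against acute. Without the first chronic replicate Serpinf1 alone of the 9 was called, beside 25 and 4 over all genes. Leaving out the first or the third standard replicate left Serpinf1 in chronic against standard, beside 18 and 14 over all genes, and leaving out the third chronic replicate ended the call of Plaur there. In chronic against acute 0 were called without the second acute replicate (2 over all genes), and Serpinf1 without the first (3 over all genes). The fold changes moved less: with any 1 library left out, chronic against standard stayed at 3.53 to 4.34 for F13a1 and 3.34 to 3.82 for Serpinf1. Without the 3 code Z libraries 1 of 6 was called in acute against standard (Plau, lower), beside 2.95% of all genes, 6 of 7 in chronic against standard, beside 21.1%, and 5 of 7 in chronic against acute, beside 16.3%.

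Groups that do not overlap were also counted. In acute against standard this held for Plaur alone, 1 of 6, beside 7.63% of all genes higher without overlap. In chronic against standard it held for F13a1, Serpinf1, F7 and Plaur, 4 of 7, beside 24.2%, and in chronic against acute for F13a1 and Serpinf1, 2 of 7, beside 22.3%. Serpinf1 passed the filter in the latter only through its chronic libraries. Within codes, 4 of 6 were higher in 3 of 3 pairs in acute against standard (20.9% of all genes), 6 of 7 in chronic against standard (46.9%) and 2 of 7 in chronic against acute (43.5%), where Thbd was lower in 3 of 3 (12.9%).

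The median log2 fold change over the 6 or 7 tested genes was 0.24 in acute against standard, 0.91 in chronic against standard and 1.08 in chronic against acute. Over all genes tested it was 0.01, 0.16 and 0.14. The 2 chronic comparisons thus had a general shift, which median-of-ratios rescaling removed. Relative to that shift, chronic against standard was 3.82 for F13a1, 3.45 for Serpinf1, 1.65 for F10, 0.75 for Plau, 0.56 for Plaur, 0.15 for F7 and -0.06 for Thbd. Relative to it, chronic against acute was 3.54 for F13a1, 3.95 for Serpinf1, 1.102 for F10, 0.94 for Plau, 0.22 for F7, -0.13 for Plaur and -0.22 for Thbd.

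**Figure D3:**
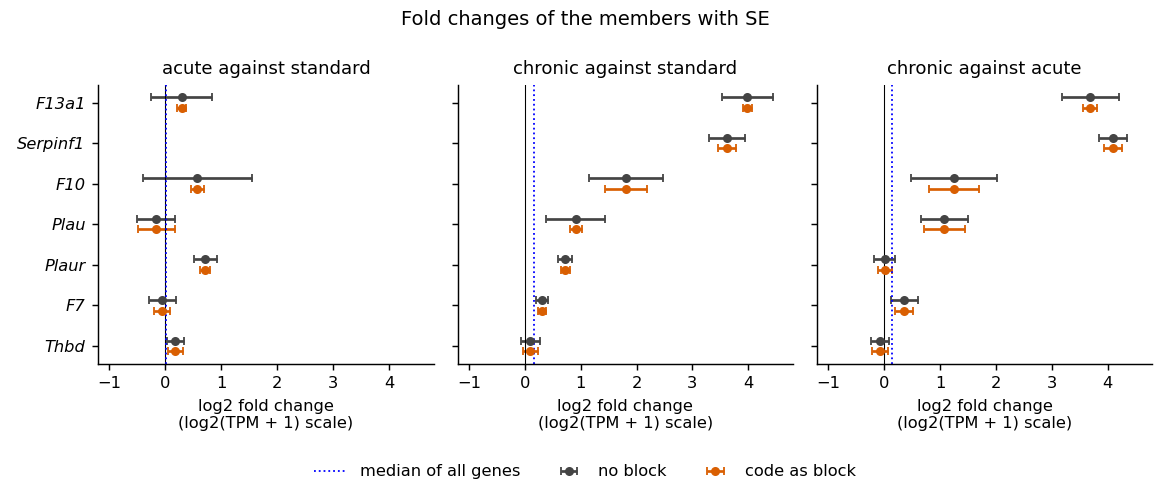
Log2 fold changes on the log2(TPM + 1) scale (horizontal axis) of the 7 genes with a mean of at least 1 TPM, in 3 comparisons, with bars for 1 SE from limma without a block (dark) and with the sample code as a block (orange). The dotted line is the median of all genes tested (0.01, 0.16 and 0.14), and F13a1 and Serpinf1 stand at 3.61 to 4.09 in both comparisons with chronic hypoxia.

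The genes most like each member over the 9 libraries were taken from 7086 genes with a mean of at least 10 TPM, by Pearson correlation of log2(TPM + 1). The 9 points fall into 3 groups and 3 codes, so values are high for many genes and are given as a description. F13a1 and Serpinf1 themselves correlated at 0.957, and at 0.977 once code means were subtracted. F7 and F10 correlated at 0.901 and 0.820. For F13a1 the closest genes were Isoc1 (0.988), Tmem123 and Lyl1, and after subtracting code means Ptma (0.998), Sirpb1c and Lyz1. For Serpinf1 they were Ptpn12 (0.988), Tmem123 and Pacs1, and after subtraction Nagpa (0.996), Polr2h and Anxa3. For Plaur they were Vegfa (0.968), Smox and Tmem119, and after subtraction Ero1l (0.997), Cdkn1b and Egln1. For F10 they were Cep350 (0.980), Tmbim4 and Mtif2, and after subtraction Blvra (0.995), Cemip2 and Srgn. For Plau they were R3hdm1 (0.980), Atp2b1 and Pik3c2a, and after subtraction Psmf1 (0.993), Sft2d1 and Mindy1. For F7 they were Mst1 (0.987), Gpcpd1 and Gas7, and after subtraction Psmf1 (0.989), Mindy1 and Alcam. For Thbd they were Crem (0.974), Dpy19l4 and Tsc22d3, and after subtraction Exosc4 (0.973), Ccnc and Sertad1.

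The other 68 genes of these pathways show what else the macrophages expressed. Of them 30 averaged at least 1 TPM over the 9 libraries and 12 were at 0 in all. The fibrinogen chains Fga, Fgb and Fgg, the second factor XIII subunit F13b, plasminogen (Plg) and protein C (Proc), all typical liver products, were among those at 0. Fibrinogen, whose product F13a1 cross-links, and plasminogen, which urokinase cleaves, thus had no transcripts listed in these libraries. Of 15 further clotting factors 2 averaged at least 1 TPM, Vwf and Tgm2, and of 4 thrombin and protease receptors none did, F2rl2 being the highest at up to 0.37 TPM. All 8 genes of factor processing and membrane scrambling, 6 of 12 anticoagulants, 7 of 14 genes of the plasminogen system and 7 of 15 other serpins did.

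In acute against standard 0 of 30 of these genes were called without a block. Unadjusted, 4 had a p below 0.05, beside 7.14% of all genes. With the code block 2 were called, both higher, beside 0.71% of all genes. Tgm2, a transglutaminase related to the factor XIII subunit, was 67.8, 109 and 69.9 TPM in standard oxygen, 166, 170.3 and 259 in acute hypoxia and 28.5, 29.2 and 73.9 TPM in chronic hypoxia. All acute libraries lay above all others. Its log2 fold change was 1.26 in acute against standard (limma adjusted p 0.209 without a block and 0.00857 with the code block) and -1.004 in chronic against standard (0.198 and 0.0226). Of its 75-base stretches 16.8% also occur in another gene, most often Gm20412, so its level is uncertain to that extent.

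The log2 ratio of F13a1 to Tgm2 within a library was 0.50, -1.51 and 0.52 in standard oxygen, -0.38, -0.42 and -2.64 in acute hypoxia and 5.63, 5.73 and 3.22 in chronic hypoxia. F13a1 was thus 49.5, 53.0 and 9.35 times Tgm2 in the 3 chronic libraries, and between 0.161 and 1.44 times in the other 6.

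In chronic against standard 2 of 29 were called without a block, beside 2.69%. Pros1, the gene of the anticoagulant protein S, fell by 1.62 on the log2 scale (limma adjusted p 0.0340). It went from 3.81, 3.55 and 4.22 TPM to 1.12, 0.40 and 0.34 TPM, with no overlap. Its chronic mean was 0.62 TPM, so it passed the filter only through its standard libraries. Lrp1, a clearance receptor for protease and serpin complexes, was higher by 0.80 (adjusted p 0.0444, and 0.0931 after rescaling), at 261, 303 and 222 against 459, 494 and 411 TPM. With the code as a block 11 of 29 were called, beside 18.4% of all genes. Among the 6 that were higher were P4hb, Anxa2, S100a10, Lrp1 and Itgam, and the 5 that were lower were Tgm2, Procr, Pros1, Serpinb6b and Serpinb9b. With rescaling added, 2 of the 6 higher calls were left, P4hb among them, and all 5 lower calls, with Serpinb9 besides. That was 8 of 29, beside 11.5% of all genes. Anxa2 and S100a10, which together form a receptor for plasminogen, were among the genes whose call ended. Of Itgam 71.7% of 75-base stretches occur in another gene, most often Gm49368, so its value is uncertain. The endothelial protein C receptor Procr was lower by 1.05 on the log2 scale (adjusted p 0.0933 without a block and 0.0173 with it).

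In chronic against acute 0 of 30 were called without a block (8 had an unadjusted p below 0.05, beside 20.8% of all genes). With the code block 8 were, beside 15.5%, with Lrp1 and Itgam higher and 6 lower, among them Tgm2, Procr, Pros1, Serpinb6b and Serpinb9b. With rescaling added, 7 were called, all lower, so the calls of Lrp1 and Itgam ended. Over all 11087 genes tested 1088 were called in that fit, 563 of them lower. The median log2 fold change of the 29 genes was 0.01 in chronic against standard, beside 0.16 over all genes. Of the lists, Anxa5 and Serpinb6a had the highest mean level among anticoagulants and other serpins, at 649 ± 104 and 518 ± 47.3 TPM in standard oxygen (SD, n = 3), and were not called in any comparison.

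**Figure D4:**
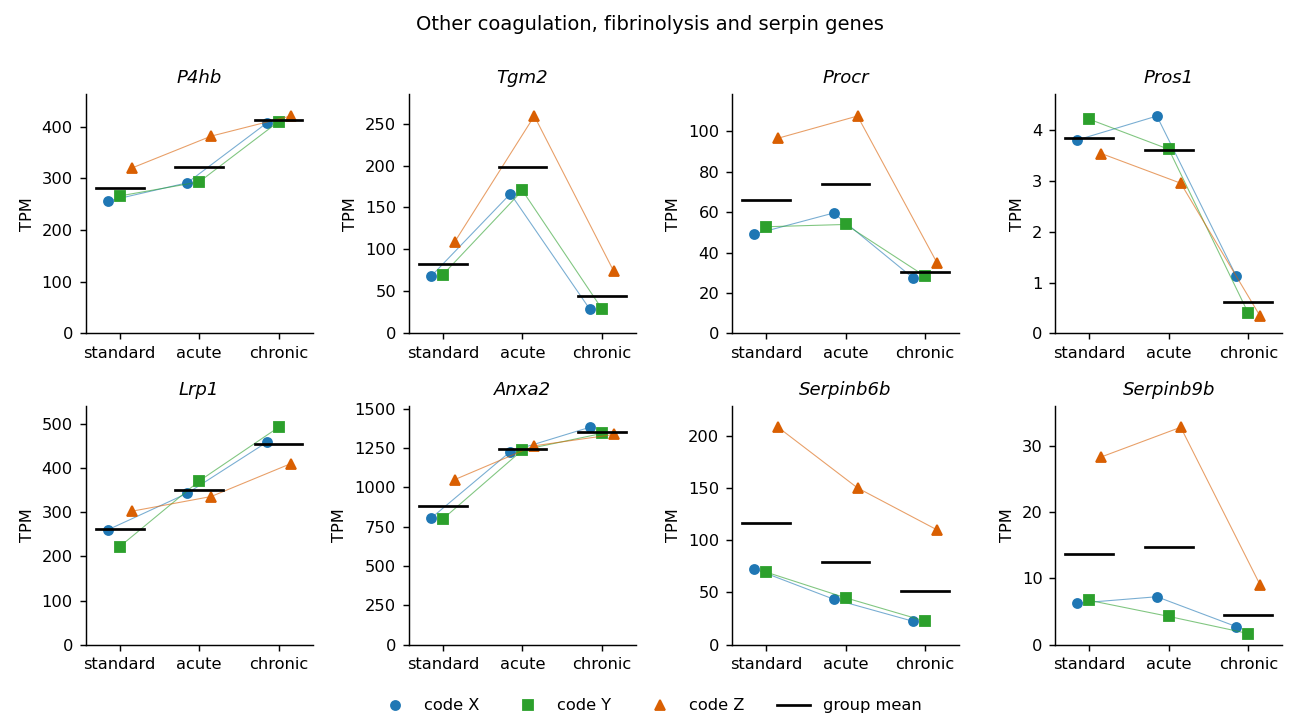
TPM (vertical axis, linear, from 0) of 8 other pathway genes by group, 1 point a library, marked by sample code, with black bars for group means. Tgm2 is highest in acute hypoxia in each code, Procr and Pros1 are lowest in chronic hypoxia, and Serpinb6b and Serpinb9b are several times higher in code Z than in the other codes.

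Of 10 transcription factors that may act on these genes, limma called 0 without a block in any of the 3 comparisons on the deposited TPM. Of the 8 tested in acute against standard and the 9 in each other comparison, 3, 3 and 5 had an unadjusted p below 0.05, beside 7.14%, 22.9% and 20.8% of all genes. After rescaling Cebpb was called lower without a block in chronic against standard and chronic against acute (adjusted p 0.0483 and 0.0478). With the code block 2 of 9 were called in each chronic comparison, beside 18.4% and 15.5% of all genes. Hif1a was higher in chronic against standard (log2 fold change 0.42, limma adjusted p 0.0231), Nfe2l2 was higher in chronic against acute (0.67, adjusted p 0.0178), and Cebpb was lower in both (-0.44 and -0.64, adjusted p 0.0250 and 0.0136). The call of Hif1a ended when rescaling was added. Of the 75-base stretches of Cebpb 16.7% and of Hif1a 5.68% occur in other genes. Whether any of these factors bears on the 9 genes was not tested.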

How the data were processed

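Expression was measured by mRNA sequencing (paired ends of 75 bases, per the labels' protocols) in 9 libraries of mouse macrophages, 3 a group. Per the submitters' processing notes, the authors used FastQC, STAR and featureCounts with the GRCm38 genome. Versions, the annotation and the step from counts to TPM are not given in the sources used here. The authors deposited TPM, a share of each library's total corrected for gene length, in 3 tables, 1 for each pair of groups. The 9 columns that 2 tables share were identical. TPM keeps no record of depth, so no counting error could be given, and a few abundant genes can shift all others. Precision rests on 3 libraries a group, which the series' design text calls biological replicates. Symbols matched 34582 of 34866 identifiers. Gene positions are from GENCODE M21 on GRCm38.

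Each comparison was fitted with limma 3.58.1 in R 4.3.3 (eBayes with trend, two-sided) on log2(TPM + 1), over the 6 libraries of its 2 groups, for genes with a mean of at least 1 TPM. Fold changes are on that scale, and p-values were adjusted by Benjamini-Hochberg over all genes tested. The scripts were tested on simulated data. The 9 genes and all lists were chosen with earlier results of these data known. From each other list, genes called in any comparison, without a block or with the code block, and the list's highest gene are named, up to 8. A gene that these lists count is not reported here by name. Lists were coagulation factors, factor processing and membrane, anticoagulants, thrombin receptors, plasminogen system, other serpins and regulators, with markers of 10 cell types. Neutrophil markers, nearly all S100a8, summed to 260.2 to 1910 TPM per library, dendritic markers to at most 7.27, mast cell markers to at most 0.786 and lymphocyte markers to at most 0.671 TPM.

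Libraries were paired by the digits shared in their descriptions, whose meaning is not stated. Deviations from group means correlated in every such pair, across genes, at 0.375 to 0.631. As each mean is over 3 libraries, a code Z that stands apart also raises the correlations within X and within Y. Libraries of X were not compared with those of Y, so these values do not show that X and Y are separate sets. Pairs by title number averaged -0.118 and -0.133 where standard libraries enter, and are the same pairs as the code's in chronic against acute. Alternatives were the pseudocount (0.1 or 5), the filter (none or 5 TPM), no trend, rescaling, quantile normalization, all 9 libraries in 1 fit, both blocks, and leaving out libraries. Shared 75-base stretches were counted between the longest GENCODE transcript of each listed gene and all transcripts of other genes.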

Additional observations from a re-analysis of the deposited data

How the results depend on the processing

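Of the 9 genes' log2 fold changes under alternatives, 300 kept direction and call, 14 gained a call, 26 lost it and 17 changed sign. Sign changes came with rescaling and quantile normalization for Thbd in chronic against standard (-0.029, -0.099, and -0.029 with the code block and rescaling) and Plaur in chronic against acute (-0.14, -0.089 and -0.14). Leaving out 1 library in turn gave acute-to-standard ranges that crossed 0 for F13a1 (-0.15 to 0.82), F7 (-0.34 to 0.10), F10 (-0.38 to 1.38) and Plau (-0.58 to 0.053), and chronic-to-acute ranges for Thbd (-0.12 to 0.0071) and Plaur (-0.14 to 0.21). The cause was not tested.

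Of the 9 genes, those called in chronic against standard (3) numbered 0 with the title-number block, 6 with the code replicate block, 6 without code Z and 0 to 4 with 1 library left out. In chronic against acute (2) they numbered 1 without a filter, without the trend, after rescaling or quantile normalization, 5 without code Z and 0 to 3 with 1 library left out. In acute against standard (0) they numbered 1 without code Z and 0 to 0 with 1 left out. Other pathway genes called in acute against standard (0) numbered 2 with the code block, with or without rescaling, 5 without code Z and 0 to 0 with 1 left out. In chronic against standard (2) they numbered 0 without a filter and with the title block, 1 with a filter of 5 TPM, without the trend, after rescaling or quantile normalization, 5 with all 9 libraries in 1 fit, 8 with the code block and rescaling, 11 with the code block, 12 without code Z and 0 to 6 with 1 left out. In chronic against acute (0) they numbered 1 after rescaling, 2 with all 9 libraries, 8 with either block, 7 with the code block and rescaling, 10 without code Z and 0 to 2 with 1 left out.

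Over all genes, 3, 298 and 77 were called in acute against standard, chronic against standard and chronic against acute without a block, 0, 1 and 1724 with the title block, and 78, 2039 and 1724 with the code block. Rescaling changed the split in chronic against standard from 232 higher and 66 lower to 111 and 116, and in chronic against acute from 61 and 16 to 29 and 44. Low genes such as F3 and Serpinb2 cannot be compared without depth.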
